A study of Mus musculus with 6 samples.

Results

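Chemokines and their receptors were examined in RNA sequencing of mouse liver after warm ischemia and reperfusion. The family comprised every row of the count table whose name begins with a chemokine or chemokine receptor symbol and a number (Ccl, Cxcl, Cx3cl, Xcl, Ccr, Cxcr, Cx3cr, Xcr, Ccrl or Ackr), which gave 56 of 15454 genes, 33 ligands and 23 receptors. All 6 livers came from male C57BL/6 mice aged 8 to 10 weeks in which blood flow to 75% of the liver had been interrupted and then restored. The 3 mice of the I/R group received vehicle, and the 3 mice of the I/R+Rk2 group received ginsenoside Rk2, a saponin of processed ginseng, dissolved in that vehicle, 2 days before surgery and again when perfusion began. Both groups therefore carried the injury, and livers from sham surgery were not analysed here. Per the paper, the sequenced Rk2 livers came from its higher dose group. Injections were intraperitoneal, and livers were collected when the reperfusion period ended. The comparison addresses whether Rk2 lowers the inflammatory gene expression that follows reperfusion. Bulk RNA of the tissue was sequenced, so fewer cells of a type and less RNA per cell cannot be told apart.

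Chemokines are small secreted proteins that direct the movement of leukocytes along a gradient, and they act through receptors of the G protein-coupled class on the leukocyte surface. In the reperfused liver, some ligands of the CXC subfamily are known to draw neutrophils and many ligands of the CC subfamily to draw monocytes and lymphocytes from the blood. Atypical receptors bind chemokines without the usual G protein signal, and several of them scavenge or transport their ligands. Many inflammatory chemokine genes lie side by side on one chromosome and are known targets of NF-κB.

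The neutrophil attractants Cxcl5, Cxcl3, Cxcl1 and Cxcl2 occupy a single stretch of chromosome 5, from 90759360 to 90905938 (mm10). The promoters of Cxcl1, Cxcl2 and Cxcl3 are printed here because these genes moved together and because each window held the same 11-letter run matching the κB consensus on both strands. Those of Cxcl10 and Ccl9 are printed for contrast, as a ligand that fell little and a ligand that did not pass the test. Each sequence reads 5′ to 3′ towards the transcription start, with the matching letters in capitals, and comes from RefSeq (GRCm38.p6). The stretches are chr5:90891144-90891214 on the plus strand for Cxcl1, chr5:90903772-90903842 on the plus strand for Cxcl2, chr5:90785998-90786068 on the plus strand for Cxcl3, chr5:92348953-92349078 on the minus strand for Cxcl10 and chr11:83578637-83578701 on the minus strand for Ccl9.
Cxcl1: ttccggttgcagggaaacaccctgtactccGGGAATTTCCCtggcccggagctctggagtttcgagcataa
Cxcl2: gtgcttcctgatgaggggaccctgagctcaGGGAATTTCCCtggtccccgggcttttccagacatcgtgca
Cxcl3: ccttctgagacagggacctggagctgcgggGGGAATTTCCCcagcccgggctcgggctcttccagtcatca
Cxcl10: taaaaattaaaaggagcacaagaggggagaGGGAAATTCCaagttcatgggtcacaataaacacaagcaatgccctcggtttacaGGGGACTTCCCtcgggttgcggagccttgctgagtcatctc
Ccl9: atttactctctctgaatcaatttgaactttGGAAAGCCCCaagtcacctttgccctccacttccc
The first match began 71 bases before the start of Cxcl1, 97 before Cxcl2 and 73 before Cxcl3, and at 159 and 104 before Cxcl10. Matches were sought on both strands, with overlapping matches counted, from 250 bases before to 50 after each start. Of all 32851 windows in the table, 2779 (8.46%) held a match, as did 1181 of 9574 tested genes with a window (12.3%). Of the tested ligands, 18 had a window and 6 of them held a match. These were 4 of the 8 that passed as lower (Cxcl1, Cxcl2, Cxcl3 and Cxcl10) and 2 of the 10 that did not (Ccl9 and Ccl27a). Of 9 tested receptors with a window, Ccr1, Ccrl2 and Ackr2 held one. Ccl2, Ccl4, Ccl5, Ccl7, Ccl24, Cxcl5, Cxcl16 and Ccr7 had no entry. A match describes letters in the window and not a site in use.

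Most inflammatory chemokines and most detectable receptors had fewer transcripts in the I/R+Rk2 livers. None of the 5 tested homing chemokines passed the test, but each had at most 103 counts in any liver. After a filter on low counts, 36 members could be tested, 25 ligands and 11 receptors, and 20 could not. Of the 25 ligands, 13 passed as lower (edgeR quasi-likelihood test, adjusted p below 0.05) and 0 as higher, while of the 11 receptors 9 passed as lower and 1, Ackr2, as higher. Over all 12411 genes tested, 23.7% passed as lower and 20.3% as higher. With a fold change above 2 as well, 12 ligands and 9 receptors were lower, against 11.4% of all genes, and 1 receptor was higher, against 3.17%. Every I/R+Rk2 liver lay below every I/R liver for 15 ligands and 9 receptors, against 30.3% of all genes, and above for 1 ligand and 1 receptor, against 27.1%. The median log2 fold change (I/R+Rk2 over I/R) was -1.20 over the ligands tested, -1.79 over the receptors tested and -0.01 over all genes tested. Among the ligands, 1 gene (Ccl27a) reached an unadjusted p below 0.05 in the higher direction and DESeq2 called 0 higher.

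The filter bore on these counts, since 5 members (Ccl19, Ccl22, Cxcl5, Ccr7 and Cx3cr1) exceeded its level of 0.407 CPM (counts per 1000000 of the scaled library) throughout the I/R livers but not throughout the I/R+Rk2 livers. Among the 31 members above that level in every I/R+Rk2 liver, 18 passed as lower, 1 as higher and 12 did not pass. The shares of all genes under the same condition were not computed, so these counts have no background beside them. The libraries held 16809613 to 35618074 counts, and at that depth 3 counts equal 0.0888 to 0.184 CPM, a limit that covers counting error only. Nothing in the labels names litters or cages, and p-values measure the spread between these livers.

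**Figure D1:**
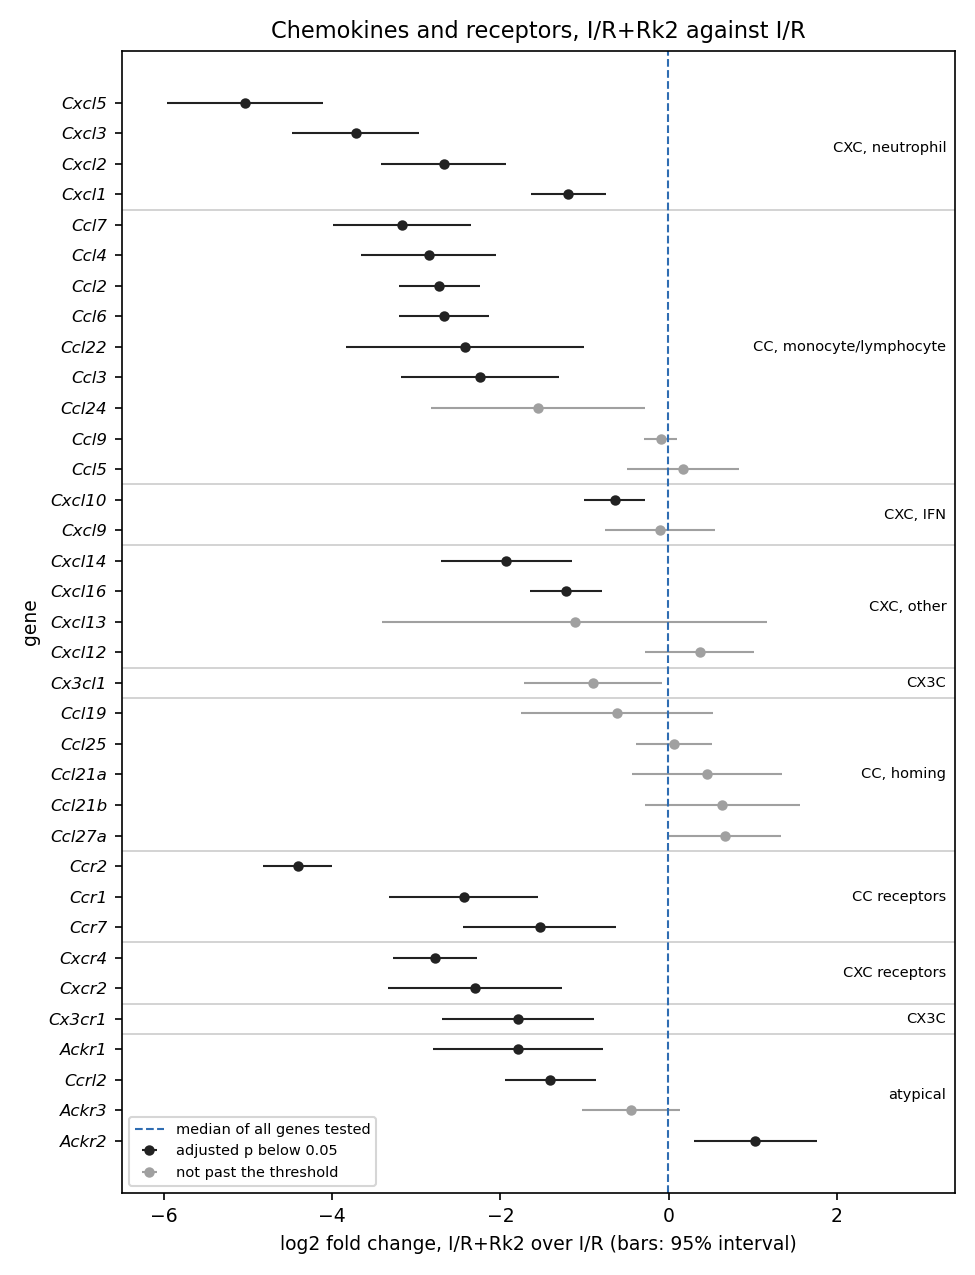
Log2 fold change of 35 tested members (x axis, I/R+Rk2 over I/R, with 95% intervals) grouped by role. Black points passed an adjusted p of 0.05 and the dashed line marks the median of all genes tested (-0.01), with Cxcl5 (-5.03) and Ccr2 (-4.41) farthest to the left and Ackr2 (1.03) farthest to the right.

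All 4 neutrophil attractants covered by the name rule fell together. These ligands signal through Cxcr2, the main chemokine receptor of mouse neutrophils. Cxcl5, also known as LIX, was at 15.1, 25.4 and 16.9 CPM in I/R replicates 1 to 3 and at 0.630, 0.296 and 0.983 CPM in I/R+Rk2 replicates 1 to 3. No I/R+Rk2 liver reached a level near the lowest I/R liver, and the log2 fold change was -5.03 ± 0.39 (SE, edgeR adjusted p = 0.000355). Cxcl3 was at 29.4, 26.1 and 29.3 CPM in I/R and at 3.45, 1.54 and 1.41 CPM in I/R+Rk2, 13.2-fold lower (log2 fold change -3.72, standard error 0.32, edgeR adjusted p = 0.000445). Its I/R livers were nearly level, and I/R+Rk2 replicate 1 was the highest of its group.

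Cxcl2, or MIP-2, was at 96.2, 72.7 and 84.8 CPM in I/R and at 19.96, 8.11 and 11.7 CPM in I/R+Rk2. It was 6.39-fold lower (log2 fold change -2.68, standard error 0.32, edgeR adjusted p = 0.00111). Cxcl1, or KC, was at 138.5, 148.2 and 172.8 CPM in I/R and at 80.1, 48.7 and 72.2 CPM in I/R+Rk2. The groups did not overlap, but the fall of Cxcl1 was smaller, 2.29-fold (log2 fold change -1.20, 95% interval -1.64 to -0.75, edgeR adjusted p = 0.00306). The 95% intervals of Cxcl2 (-3.42 to -1.93), Cxcl3 (-4.47 to -2.97) and Cxcl5 (-5.96 to -4.10) all lay below that of Cxcl1.

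The neighbours on chromosome 5 thus fell to unequal extents in each liver. The CPM of Cxcl2 amounted to 69.5%, 49.1% and 49.0% of that of Cxcl1 in the I/R livers and to 24.9%, 16.7% and 16.2% in the I/R+Rk2 livers. For Cxcl5 the same ratio was 10.9%, 17.2% and 9.78% in I/R and 0.787%, 0.608% and 1.36% in I/R+Rk2. Neither ratio overlapped between the groups. These ratios are not adjusted for transcript length and are compared only between livers.

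**Figure D2:**
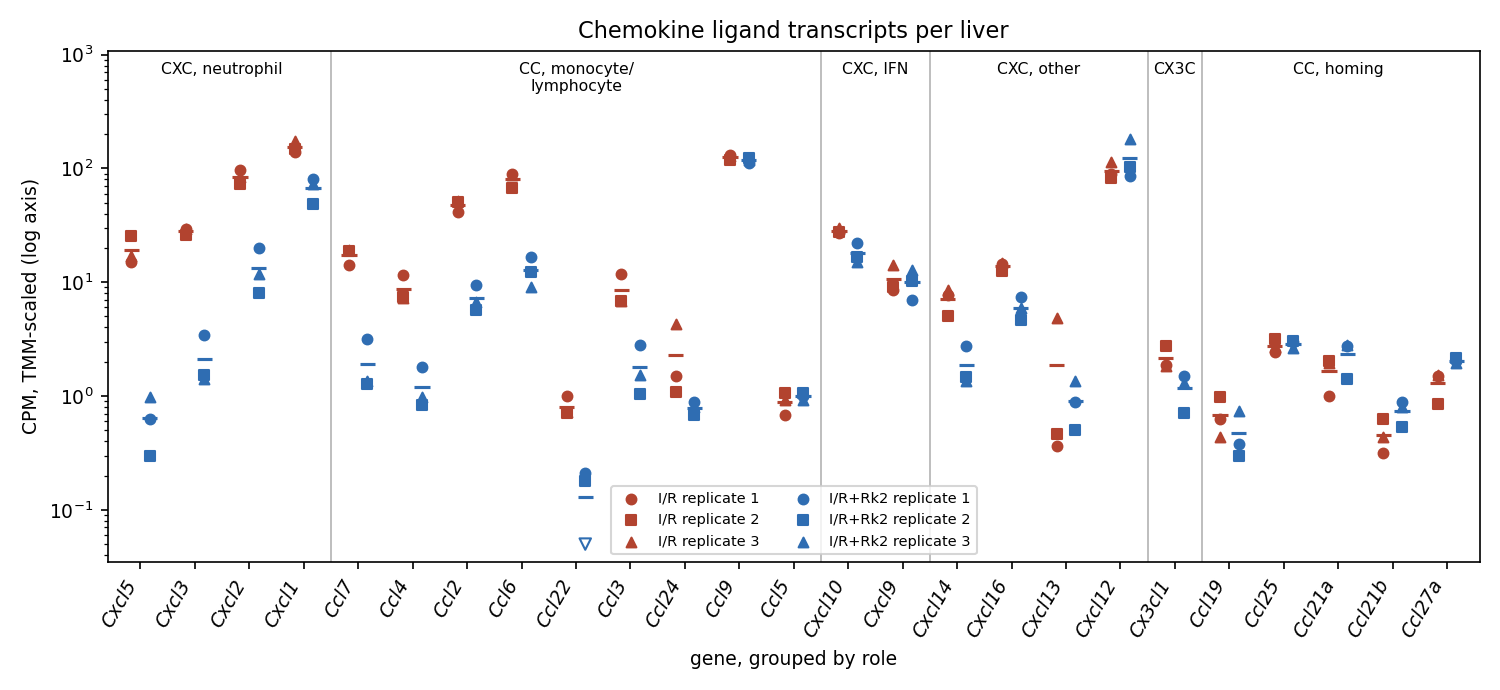
TMM-scaled CPM (y axis, log scale) of the 25 tested ligands in each liver, grouped by role, with I/R in red, I/R+Rk2 in blue, 1 symbol per replicate and a bar at the group mean. The open triangle is Ccl22 at 0 counts in I/R+Rk2 replicate 3, and the neutrophil attractants on the left separate the groups, while of the homing ligands on the right 4 of 5 overlap.

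Of 9 CC ligands that attract monocytes and lymphocytes, 6 passed as lower, each by more than 2-fold. Ccl2, or MCP-1, which recruits monocytes through Ccr2, was at 41.3, 50.9 and 52.1 CPM in I/R and at 9.50, 5.68 and 6.69 CPM in I/R+Rk2 (6.61-fold lower, log2 fold change -2.73, standard error 0.21, edgeR adjusted p = 0.000296). Ccl7, or MCP-3, another Ccr2 ligand encoded beside Ccl2 on chromosome 11 (82035571 to 82103400 for the cluster), was at 14.2, 18.7 and 19.3 CPM in I/R and at 3.15, 1.27 and 1.35 CPM in I/R+Rk2 (log2 fold change -3.17, standard error 0.35, edgeR adjusted p = 0.000884). Both genes separated the groups by a wide margin, with I/R+Rk2 replicate 1 the highest of its group. Their other neighbours, Ccl11 and Ccl12, had too few counts to be tested.

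The second CC cluster on chromosome 11, from 83525778 to 83664683, held genes that fell and genes that did not. Ccl3 and Ccl4 (MIP-1α and MIP-1β) attract monocytes and T cells, and Ccl3 is also a ligand of Ccr1. Ccl3 was at 11.8, 6.87 and 6.78 CPM in I/R and at 2.82, 1.04 and 1.54 CPM in I/R+Rk2 (log2 fold change -2.24, standard error 0.40, edgeR adjusted p = 0.00469). Ccl4 was at 11.5, 7.45 and 7.26 CPM in I/R and at 1.81, 0.829 and 0.983 CPM in I/R+Rk2 (log2 fold change -2.85, standard error 0.34, edgeR adjusted p = 0.00114). Replicate 1 was the highest liver of both groups for these genes.

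Ccl6 and Ccl9, neighbouring ligands of Ccr1 made by myeloid cells, differed in their response. Ccl6 was at 89.5, 67.0 and 87.3 CPM in I/R and at 16.6, 12.3 and 9.09 CPM in I/R+Rk2, 6.38-fold lower (log2 fold change -2.67, 95% interval -3.21 to -2.14, edgeR adjusted p = 0.000428). Ccl9 was at 131.5, 118.9 and 128.4 CPM in I/R and at 111.0, 124.1 and 119.1 CPM in I/R+Rk2, with groups that overlapped (log2 fold change -0.10, 95% interval -0.29 to 0.10, edgeR adjusted p = 0.382). The sign of the Ccl9 value turned to 0.027 once the transcript length trend of each library was removed. The CPM of Ccl6 amounted to 68.0%, 56.4% and 67.9% of that of Ccl9 in I/R and to 14.9%, 9.95% and 7.63% in I/R+Rk2, so the ratio did not overlap between the groups. Ccl5 (RANTES), at the edge of the same cluster, was at 0.678, 1.05 and 0.917 CPM in I/R and at 1.01, 1.07 and 0.921 CPM in I/R+Rk2 and did not pass the test (0.17 on the log2 scale, edgeR adjusted p = 0.644).

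The remaining CC attractants had few counts. Ccl22, a ligand of Ccr4 from dendritic cells and macrophages, had 19, 18 and 18 counts in I/R and 5, 6 and 0 in I/R+Rk2 and passed at an edgeR adjusted p of 0.0161, with log2 fold change -2.42. That call was lost when I/R replicate 1 (0.0584) or I/R+Rk2 replicate 2 (0.0503) was left out, and the alternatives tried gave adjusted p between 0.0077 and 0.0584. Ccl24, an eosinophil attractant, was at 1.51, 1.09 and 4.27 CPM in I/R and at 0.883, 0.681 and 0.798 CPM in I/R+Rk2. Its groups did not overlap, I/R replicate 3 stood far above the others, and its test narrowly missed the threshold (log2 fold change -1.55, edgeR adjusted p = 0.0520, range over its alternatives 0.0263 to 0.161). Without I/R replicate 3 its log2 fold change was -0.72. It passed without I/R replicate 2 (0.0263), in DESeq2 (0.0301), under library size alone (0.0324), with at least 10 counts in every sample (0.0462) and with the length trend removed (0.0496).

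The interferon-inducible ligands Cxcl9 and Cxcl10, which share the receptor Cxcr3, lie together on chromosome 5 (92321347 to 92348889). Cxcl10 was at 26.8, 27.5 and 29.9 CPM in I/R and at 22.2, 16.6 and 15.1 CPM in I/R+Rk2, 1.56-fold lower (log2 fold change -0.64, standard error 0.15, edgeR adjusted p = 0.0142). The groups did not overlap, and the gene missed the threshold when I/R replicate 3 (0.0549) or I/R+Rk2 replicate 2 (0.0565) was left out, with adjusted p between 0.00222 and 0.0565 over its alternatives. Its exons overlap those of Art3 on the opposite strand, and whether strand was used in counting is not given in the sources used here. Cxcl9 was at 8.60, 9.09 and 14.3 CPM in I/R and at 6.93, 10.2 and 12.8 CPM in I/R+Rk2 and did not pass (log2 fold change -0.10, 95% interval -0.75 to 0.55). Removing the length trend turned it to 0.0083.

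Among the other CXC ligands, 2 of 4 passed as lower. Cxcl14, a chemokine of epithelial and stromal cells, was at 7.77, 4.995 and 8.61 CPM in I/R and at 2.73, 1.48 and 1.35 CPM in I/R+Rk2 (log2 fold change -1.93, standard error 0.33, edgeR adjusted p = 0.00402). Cxcl16, a membrane-bound ligand of Cxcr6, was at 14.4, 12.6 and 14.6 CPM in I/R and at 7.40, 4.65 and 5.90 CPM in I/R+Rk2 (log2 fold change -1.22, standard error 0.18, edgeR adjusted p = 0.00256). Its exons overlap those of Zmynd15 on the opposite strand. Both ligands separated the groups, and neither lost its call under any alternative computed.

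Cxcl12, the ligand of Cxcr4 and Ackr3 made by stromal and endothelial cells, was at 89.8, 82.9 and 112.9 CPM in I/R and at 85.1, 103.7 and 179.9 CPM in I/R+Rk2. The groups overlapped, and the gene stayed above the threshold (log2 fold change 0.37, 95% interval -0.28 to 1.01, edgeR adjusted p = 0.311). Without I/R+Rk2 replicate 3, its highest liver, the value was -0.0059. Cxcl13, a B cell attractant, was at 0.365, 0.468 and 4.82 CPM in I/R and at 0.883, 0.503 and 1.35 CPM in I/R+Rk2 and missed the threshold by far (-1.12 on the log2 scale, edgeR adjusted p = 0.382). I/R replicate 3 alone held 121 counts where replicates 1 and 2 held 7 and 12, and without it the value turned to 1.06.

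Cx3cl1 (fractalkine), the membrane-bound ligand of Cx3cr1, was at 1.88, 2.73 and 1.83 CPM in I/R and at 1.51, 0.711 and 1.29 CPM in I/R+Rk2. It missed the threshold although the groups did not overlap (log2 fold change -0.90, edgeR adjusted p = 0.0717, range over its alternatives 0.0468 to 0.209). It passed without I/R+Rk2 replicate 1 (0.0494) and under library size alone (0.0468). The homing and epithelial CC ligands, which guide lymphocytes and dendritic cells in the steady state, included 5 tested genes, of which 0 passed in either direction by edgeR or DESeq2. At an unadjusted p below 0.05 there was 1, Ccl27a. Ccl21a, a Ccr7 ligand, was at 0.991, 2.03 and 1.95 CPM in I/R and at 2.73, 1.42 and 2.82 CPM in I/R+Rk2 (log2 fold change 0.45). Ccl25, a ligand of Ccr9, was at 2.45, 3.16 and 2.67 CPM in I/R and at 2.98, 3.05 and 2.64 CPM in I/R+Rk2 (0.068). Both overlapped between the groups, as did Ccl19 (-0.61), the other Ccr7 ligand, and Ccl21b (0.64). Ccl27a, a ligand of Ccr10, was at 1.51, 0.859 and 1.51 CPM in I/R and at 2.02, 2.16 and 1.97 CPM in I/R+Rk2 and was the only tested ligand whose I/R+Rk2 livers all lay above the I/R livers (log2 fold change 0.67, edgeR adjusted p = 0.0920). Ccl21a and Ccl21b, like Ccl27a and Ccl27b, have near-identical copies that reads can be split between, and their values are uncertain. Exons of Ccl27a overlap those of Il11ra1, and exons of Ccl25 those of Elavl1, on the opposite strand.

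By TMM-scaled CPM the ligands summed to 739, 694 and 805 in I/R and to 387, 352 and 454 in I/R+Rk2, a 1.88-fold difference of the means. On a scale adjusted for transcript length, the total of the ligands was also lower and its composition differed. Summed FPKM (fragments per kilobase of transcript and 1000000 mapped fragments) of the ligands were 590, 504 and 587 in I/R and 220, 160 and 218 in I/R+Rk2, and the group means differed 2.81-fold. Cxcl1 was the most abundant ligand by mean FPKM in both groups, at 151 in I/R and 58.8 in I/R+Rk2, and made up 24.6% to 28.6% of the ligand total in I/R and 26.3% to 33.1% in I/R+Rk2. In I/R it was followed by Cxcl2, Ccl6, Ccl2, Ccl9 and Cxcl12, and in I/R+Rk2 by Cxcl12, Ccl9, Cxcl10, Cxcl2 and Ccl6. In I/R the FPKM of Cxcl2 (72.3 ± 14.3, SD, n = 3) and of Ccl6 (68.8 ± 14.5) differed by less than either SD, and the difference between Cxcl12 (37.2 ± 21.1) and Ccl9 (34.9 ± 1.54) in I/R+Rk2 was smaller than the SD of Cxcl12. Cxcl1, Cxcl2, Ccl6 and Ccl2 together held 62.6%, 61.9% and 62.7% of the ligand FPKM in I/R and 50.9%, 39.6% and 38.6% in I/R+Rk2. The share of Cxcl12 was 4.63% to 6.92% in I/R and 10.5% to 28.2% in I/R+Rk2, and that of Ccl9 was 6.93% to 7.93% and 15.4% to 22.9%, while neither gene passed the test on its own counts.

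**Figure D3:**
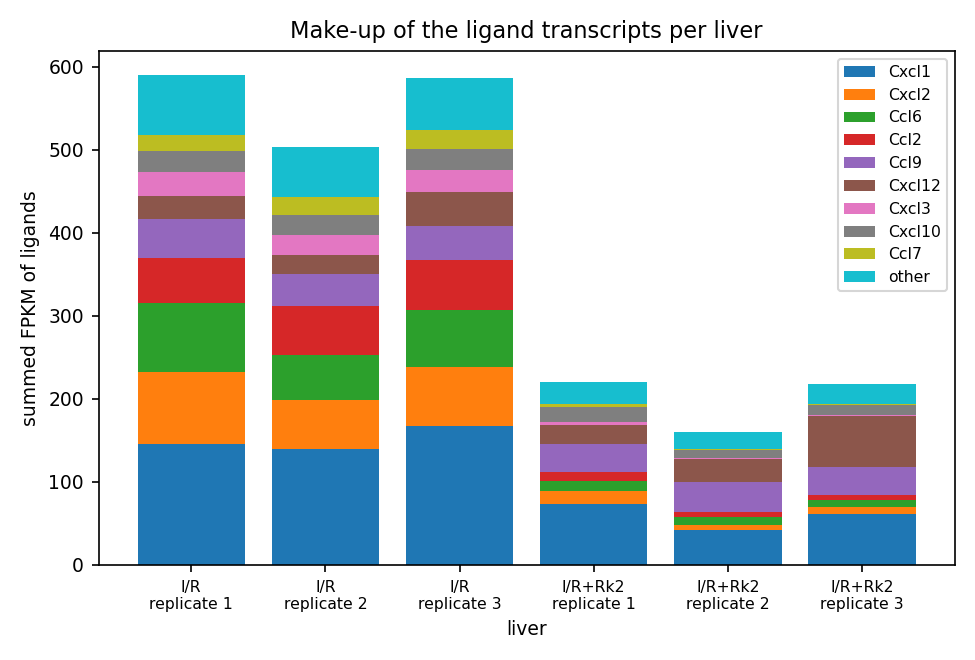
Summed FPKM of all ligands in each liver (y axis), stacked by ligand, with the 9 most abundant drawn apart and the rest as other. The I/R columns reach 504 to 590 and the I/R+Rk2 columns 160 to 220, with Cxcl12 and Ccl9 taking larger shares of the latter.

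The 7 tested CC, CXC and CX3C receptors had lower levels in every I/R+Rk2 liver than in any I/R liver, as had 30.3% of all genes tested. Of these receptors, Ccr7 and Cx3cr1 exceeded the filter level throughout the I/R livers only. Ccr2, the receptor that marks classical monocytes (chromosome 9, 124101950 to 124113557), was at 13.5, 13.7 and 15.3 CPM in I/R and at 0.799, 0.622 and 0.553 CPM in I/R+Rk2, 21.2-fold lower (log2 fold change -4.41, standard error 0.18, edgeR adjusted p = 0.000131). On log2(FPKM + 1) its value was -2.0002. Ccr1, found on monocytes and neutrophils (chromosome 9, 123962124 to 123968692), was at 31.9, 32.3 and 33.3 CPM in I/R and at 10.1, 4.71 and 3.07 CPM in I/R+Rk2 (log2 fold change -2.43, standard error 0.38, edgeR adjusted p = 0.00284). Both genes had tight I/R groups, and I/R+Rk2 replicate 1 was the highest of its group.

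Cxcr2, the receptor for the neutrophil attractants (chromosome 1, 74153989 to 74161246), was at 29.4, 28.1 and 34.2 CPM in I/R and at 10.5, 5.51 and 2.33 CPM in I/R+Rk2, 4.92-fold lower (log2 fold change -2.30, standard error 0.44, edgeR adjusted p = 0.00596). The I/R+Rk2 livers spread widely, and without replicate 1 of that group the log2 fold change was -2.91 for Cxcr2 and -3.03 for Ccr1. Cxcr4, the Cxcl12 receptor of many leukocytes (chromosome 1, 128588199 to 128592293), was at 18.8, 13.03 and 17.1 CPM in I/R and at 2.48, 2.75 and 1.78 CPM in I/R+Rk2 (6.84-fold lower, log2 fold change -2.77, standard error 0.21, edgeR adjusted p = 0.000312). It was 1 of the 4 lower members for which replicate 1 was not the highest I/R+Rk2 liver. Cx3cr1, carried by patrolling monocytes and some macrophages, was at 0.886, 0.820 and 1.55 CPM in I/R and at 0.336, 0.296 and 0.307 CPM in I/R+Rk2 (log2 fold change -1.79, edgeR adjusted p = 0.00946). Its exons overlap those of Gm33858 on the opposite strand.

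Ccr7, which guides dendritic cells and T cells to lymph nodes, had 11, 13 and 21 counts in I/R and 5, 7 and 4 in I/R+Rk2 (log2 fold change -1.53, edgeR adjusted p = 0.0172). The call rests on few reads and was lost in DESeq2 (0.0766) and on leaving out I/R replicate 3 (0.0754) or I/R+Rk2 replicate 2 (0.0695), with adjusted p between 0.0115 and 0.0766 over its alternatives.

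**Figure D4:**
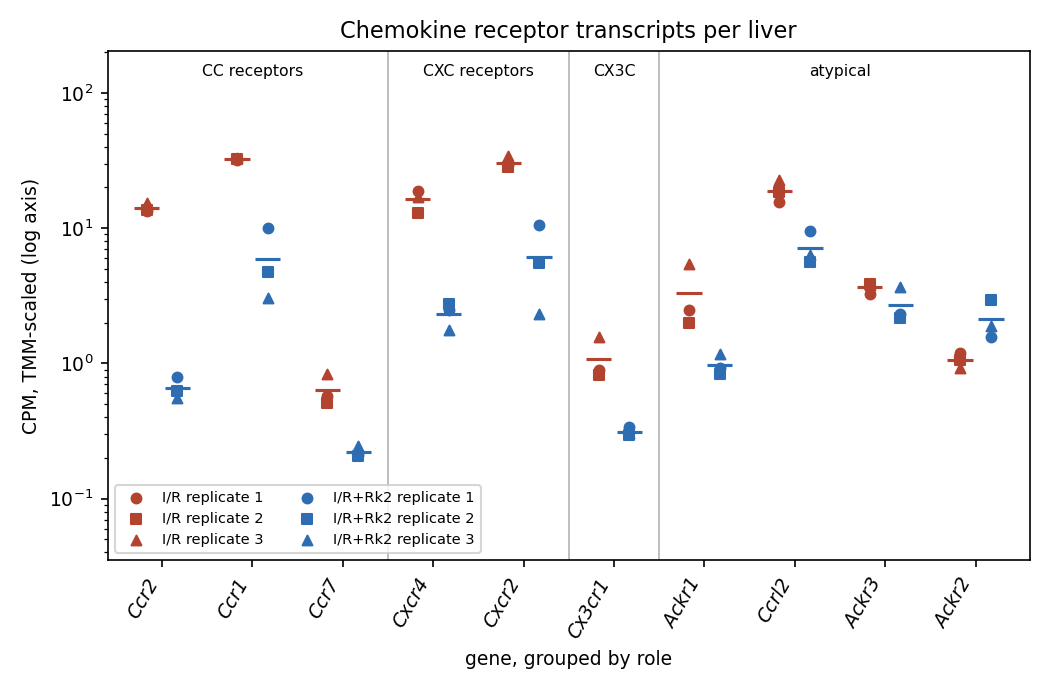
TMM-scaled CPM (y axis, log scale) of 10 tested receptors in each liver, grouped by class, with I/R in red, I/R+Rk2 in blue, 1 symbol per replicate and a bar at the group mean. Ccr2 shows the widest separation (13.5 to 15.3 against 0.553 to 0.799 CPM), Ackr3 overlaps and Ackr2 lies the other way.

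The atypical receptors moved in different directions. Ccrl2, which binds chemerin and is expressed by activated myeloid and endothelial cells, was at 15.7, 18.5 and 22.7 CPM in I/R and at 9.50, 5.65 and 6.32 CPM in I/R+Rk2 (log2 fold change -1.41, standard error 0.23, edgeR adjusted p = 0.00332). Ackr1, the Duffy antigen receptor of venular endothelium and red cells, was at 2.50, 1.99 and 5.46 CPM in I/R and at 0.925, 0.829 and 1.17 CPM in I/R+Rk2 (log2 fold change -1.79, edgeR adjusted p = 0.0139, range over its alternatives 0.00146 to 0.0548). I/R replicate 3 was well above the other livers, the call was lost without I/R+Rk2 replicate 2 (0.0548), and exons of Cadm3 on the same strand overlap those of Ackr1. Ackr3, a scavenger of Cxcl12, was at 3.28, 3.86 and 3.79 CPM in I/R and at 2.31, 2.16 and 3.68 CPM in I/R+Rk2, with overlapping groups (log2 fold change -0.44, edgeR adjusted p = 0.185, range over its alternatives 0.0372 to 0.420), and it passed only without I/R+Rk2 replicate 3, at -0.70 (0.0372).

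Ackr2, a scavenger of inflammatory CC chemokines (chromosome 9, 121898355 to 121911074), was the only tested member that passed as higher. It was at 1.20, 1.05 and 0.917 CPM in I/R and at 1.56, 2.93 and 1.90 CPM in I/R+Rk2 (log2 fold change 1.03, standard error 0.31, edgeR adjusted p = 0.0328). The counts behind these levels were 23, 27 and 23 in I/R and 37, 99 and 31 in I/R+Rk2. In the FPKM table the groups overlapped, at 0.790, 0.768 and 1.38 in I/R and at 1.299, 0.883 and 0.536 in I/R+Rk2, and I/R+Rk2 replicate 3 was the lowest liver. The call was lost on leaving out I/R replicate 1 (0.0630), 2 (0.0804) or 3 (0.101) or I/R+Rk2 replicate 2 (0.121) or 3 (0.0512), and its adjusted p ran from 0.0204 to 0.842 over its alternatives.

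By length-adjusted level, the receptors summed to 54.7, 46.7 and 58.7 FPKM in I/R and to 16.5, 10.4 and 8.08 FPKM in I/R+Rk2, a 4.57-fold difference of the means. In I/R the order by mean FPKM was Ccr1 (11.4 ± 0.565, SD, n = 3), Ccrl2 (10.1 ± 1.72), Cxcr2 (10.1 ± 1.13) and Cxcr4 (9.63 ± 2.26), and the last 3 of these differed by less than the smallest of their SDs. In I/R+Rk2 Ccrl2 came first at 3.08 ± 1.25 FPKM, followed by Ccr1 (1.89 ± 1.22), Cxcr2 (1.80 ± 1.27) and Cxcr4 (1.15 ± 0.267), and neighbours in that order differed by less than the larger of their SDs.

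Set beside their ligands, the receptors fell with them on some axes and not on others, though no difference between genes was tested. Cxcr2 fell together with its ligands Cxcl1, Cxcl2, Cxcl3 and Cxcl5, and Ccr2 together with Ccl2 and Ccl7. The platelet chemokine Ppbp, which the name rule does not cover, was higher instead (log2 fold change 0.68, edgeR adjusted p = 0.0365). Ccr1 fell together with Ccl3 and Ccl6, while its ligands Ccl5 and Ccl9 did not pass. Cxcr4 fell by 2.77 on the log2 scale, whereas Cxcl12 and Ackr3 did not pass. Cxcl10 fell, but its receptor Cxcr3 had at most 6 counts per liver and could not be tested. Cx3cr1 and Ccr7 fell without a passing change of Cx3cl1, Ccl19, Ccl21a or Ccl21b.

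The 20 untested members were Ccl11, Ccl12, Ccl17, Ccl20, Ccl27b, Ccl28, Xcl1 and Cxcl17 among the ligands and Ccr3, Ccr4, Ccr6, Ccr8, Ccr9, Ccr10, Cxcr1, Cxcr3, Cxcr5, Cxcr6, Xcr1 and Ackr4 among the receptors. Their highest count in any liver was 19, and 0 of them passed with every gene kept in the edgeR fit or in DESeq2. Without the filter, 1 gene (Ccl11) had an unadjusted p below 0.05, with 18, 16 and 7 counts in I/R and 2, 3 and 6 in I/R+Rk2. Cxcr1, the second CXC receptor of neutrophils, had 16, 5 and 18 counts in I/R and 7, 4 and 0 in I/R+Rk2. The untested receptors of lymphocytes were at or near the limit of detection in both groups, with Cxcr6 at 0, 12 and 9 counts in I/R and 7, 12 and 5 in I/R+Rk2. By CPM, 0 of the untested members had every I/R+Rk2 liver below every I/R liver and 2 had every one above. These were Ackr4, with 0, 7 and 10 counts in I/R and 15, 19 and 7 in the unequally deep I/R+Rk2 libraries, and Ccr9, with 4, 5 and 4 counts and then 11, 10 and 5. The exons of both overlap other genes. The FPKM table held 5 further names that match the rule (Ccl1, Ccl8, Ccl26, Cxcl15 and Ccr1l1), all listed at 0 in each liver.

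The livers kept a similar order across many members. Among the 22 members that passed as lower, I/R+Rk2 replicate 1 was the highest liver of its group for 18, replicate 3 for 3 and replicate 2 for 1. I/R+Rk2 replicate 1 was the lowest of its group for 0 of them. The order of the livers over all genes called lower was not counted, so it is not known whether this order is particular to the family. Among the I/R livers, replicate 3 was the highest for 14, replicate 1 for 7 and replicate 2 for 1. Leaving out I/R+Rk2 replicate 1 gave 14 lower ligands and 9 lower receptors.

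Marker genes of the leukocytes that carry these receptors moved in the same direction. All 9 monocyte markers passed as lower (median log2 fold change -4.33), where 23.7% of all genes tested passed as lower and 20.3% as higher. The summed level of the monocyte markers was 1949, 1628 and 1902 CPM in I/R and 1179, 1186 and 1130 CPM in I/R+Rk2, a 1.57-fold difference of the means. Most of that sum was Fn1, which hepatocytes also express. Without Fn1 the sum was 204, 220 and 226 CPM in I/R and 19.7, 11.5 and 14.0 CPM in I/R+Rk2. Of 10 neutrophil markers, 8 passed as lower (median -1.78), with summed levels of 581, 475 and 595 CPM in I/R and 224, 120 and 95.9 CPM in I/R+Rk2. No marker of either list was at 0 in a whole group. As with Cxcr2, Ccr1 and most falling ligands, I/R+Rk2 replicate 1 had the highest neutrophil sum of its group. Of the neutrophil markers, Retnlg and Ngp did not pass. The part of these cells in the chemokine and receptor values was not tested.

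Transcripts that mark resident macrophages changed less by their median. All 10 Kupffer cell markers had negative log2 fold changes (median -0.46), of which 1 (Cd5l) passed as lower. Over all genes tested, 23.7% passed as lower and 20.3% as higher, the shares to set beside each count here. The summed level of the Kupffer cell markers was 92.1 to 144 CPM in I/R and 75.8 to 92.7 CPM in I/R+Rk2. Dendritic cell markers summed to 5.54 to 7.53 CPM in I/R and 3.404 to 3.91 CPM in I/R+Rk2, with 2 of 3 tested lower. T and NK cell markers (11 of 14 in the table) summed to 1.09 to 2.54 CPM in I/R and 1.41 to 4.92 CPM in I/R+Rk2, and only Cd4 could be tested and did not pass. B cell markers summed to at most 1.13 CPM and none could be tested. Sinusoidal endothelial markers summed to 197 to 204 CPM in I/R and 166 to 207 CPM in I/R+Rk2, with 3 lower and 3 higher of 8. Stellate cell markers summed to 157 to 194 and 121 to 142 CPM, and cholangiocyte markers to 165 to 231 and 84.0 to 117 CPM. Most of the cholangiocyte sum was Spp1, which macrophages also express, and without it the sums were 38.7, 32.4 and 41.3 CPM in I/R and 34.3, 28.98 and 35.6 CPM in I/R+Rk2, which overlapped. Hepatocyte markers, which check the labelled tissue, had by far the highest sums. They came to 65279 to 75606 CPM in I/R and 98295 to 120805 CPM in I/R+Rk2, with 5 of 8 higher. Their part in the chemokine values was not tested either.

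**Figure D5:**
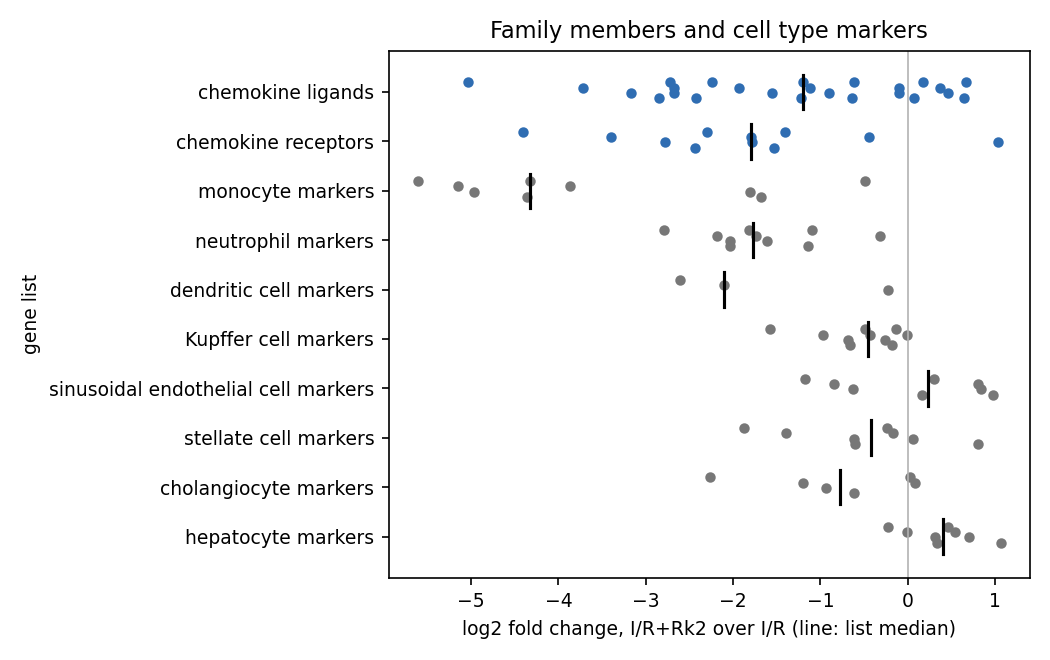
Log2 fold changes (x axis, I/R+Rk2 over I/R) of tested ligands and receptors (blue) and of tested cell type markers (grey), 1 point per gene, with a bar at each list's median. Monocyte markers (median -4.33) and neutrophil markers (median -1.78) lie on the same side as the receptors (-1.79), and hepatocyte markers lie to the right.

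Genes that act with the chemokine system were read from fixed lists of other ligands and receptors, signalling genes and processing genes. Of 10 chemokines and chemotactic receptors that carry other names, 5 passed as lower and 3 as higher, where all genes gave 23.7% and 20.3%. The lower genes were all receptors, with log2 fold changes of -2.87 for C5ar1 (complement C5a), -2.05 for Cmklr1 (chemerin) and -2.30 for Ltb4r1 (leukotriene B4) among them. The higher genes were ligands, and the chemerin gene Rarres2 (0.45), the platelet chemokine Ppbp (0.68) and Mif (0.32) rose by less than 2-fold.

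Of 30 tested genes that transmit receptor signals in leukocytes, 19 passed as lower, 2 as higher and 9 did not pass (median log2 fold change -0.74), beside 23.7% lower and 20.3% higher among all genes. The smallest p-values among the lower genes were those of the Src family kinases Fgr (-2.93) and Lyn (-0.82) and of the actin regulator Was (-2.34). The higher genes were Rgs16 (2.33), which dampens G protein signals and was at 20.6, 11.6 and 30.7 CPM in I/R and at 73.2, 134.6 and 107.5 CPM in I/R+Rk2, and the phospholipase Plcb3 (0.41). Of 13 genes that process or present chemokines, 8 passed as lower, 2 as higher, which is below the share of all genes (20.3%), and 3 did not pass (median -0.91). Adam17 (-2.03) and Adam10 (-1.87), the sheddases that release Cx3cl1 and Cxcl16 from the membrane, and the neutrophil collagenase Mmp8 (-2.22) had the smallest p-values. The higher genes were Sdc2 (0.82), a heparan sulfate proteoglycan, and Dpp4 (0.76), a peptidase that clips several chemokines. Mmp9 stands both in this list and among the neutrophil markers.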

How the data were processed

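Per the labels, libraries were made from 250 ng of liver RNA, extracted with TRIzol, with an MGIEasy kit. The authors checked reads with FastQC 0.11.5, aligned them with HISAT2 2.2.1 and assembled expression values with StringTie 1.3.3 on mm10, per the submitters' processing notes. The annotation and the strand setting are not given in the sources used here. The authors deposited whole-number counts per gene (15454 rows) and FPKM per gene (21948 rows), with replicates not pooled. In genes with 1 annotated transcript and 1 to 20 counts, rounding up the number of reads that the FPKM implied returned the deposited count for 76.8% to 81.2% of genes per library, against 58.2% to 65.3% for the nearest whole number.

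Counts were tested in R 4.3.3 with edgeR 4.0.16 (filterByExpr, TMM scaling, quasi-likelihood F test, no covariates, Benjamini-Hochberg adjustment over 12411 genes), I/R+Rk2 against I/R, 3 livers each. DESeq2 1.42.0, the tool of the study, and limma 3.58.1 on log2(FPKM + 1) or log2(FPKM + 0.1) were alternatives, beside other scalings and filters, each liver left out, the replicate block and removal of the trend with transcript length. Passing was an adjusted p below 0.05, also counted with a fold above 2, the study's limits. Standard errors were the absolute log2 fold change over the square root of the F statistic. The script was tested on simulated data. Livers of a group differed by a chi-square of 31.4 to 74.8 per degree of freedom, so none was a duplicate.

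Members were all genes matching the name rule, and every tested member is named, apart from 1 that is counted and tested but not reported here. Values per liver are given for members with a mean of at least 1 CPM in either group or past the fold limit, at most 3 passing genes by smallest p are named per pathway list and direction, and marker lists are given as sums. Other names were chosen after their values were seen. The members and lists were chosen with earlier results of these data known. Positions are from GENCODE M21 and promoters from RefSeq GRCm38.p6.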

Additional observations from a re-analysis of the deposited data

How the results depend on the processing

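Over 18 alternatives, 588 of 624 values of the 36 tested members kept their direction and their side of the threshold, and 18 of the 23 passing genes kept their call in every alternative in which they were computed. Those that lost it somewhere were Ackr1, Ackr2, Ccl22, Ccr7 and Cxcl10. Leaving out 1 liver at a time gave 11 to 14 lower ligands, 0 higher ligands, 8 to 10 lower receptors and 0 to 1 higher receptors, with a fold above 2 also 0 to 1. With at least 10 counts in every sample, 5 receptors were lower (5 with the fold limit), since fewer were tested. The call of Ackr2 was lost, leaving 0 higher receptors with or without the fold limit, under library size alone, the replicate block, the length trend removed with the replicate block and limma on log2(FPKM + 1) without a filter, where its value was -0.059. The other limma fits on FPKM also gave 0 higher receptors, but Ackr2 was below their filter on FPKM and was not tested. The cause was not tested. With the length trend removed together with the replicate block, 1 ligand was higher, Cxcl12 (0.58, edgeR adjusted p = 0.0344).

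Signs that turned were all of genes that had not passed, apart from Ackr2. Ccl25 was -0.084 under library size alone, which moved the median of all genes to -0.17, and ranged from -0.00050 to 0.18 with 1 liver left out. Removing the length trend, which moved the median of all genes to 0.15, gave 0.027 for Ccl9 and 0.0083 for Cxcl9, and 0.026 and 0.011 with the replicate block. With 1 liver left out, Cxcl9 ranged from -0.31 to 0.16, Cxcl12 from -0.0059 to 0.56 and Cxcl13 from -1.58 to 1.06. On log2(FPKM + 1), whose pseudocount shrinks low values, Cxcl5 was -3.28, Ccr2 -2.0002, Ackr1 -1.17, Ccl22 -0.38, Ccr7 -0.26 and Cx3cr1 -0.22.

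The replicate block left 13 lower ligands and 9 lower receptors. Same-numbered livers did not deviate together (correlations of -0.06 to 0.01 over 3 pairs), so the numbers were not used as pairs. The 20 untested members were below the filter on counts, and whether deeper libraries would bring them above it was not tested. With no sham group analysed here, the level before injury could not be read. Leaving Spp1 out of the cholangiocyte sum was chosen after seeing the data, and leaving Fn1 out of the monocyte sum was not planned.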
